A study of Mus musculus with 4 samples.

Results

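Cadherins and Cadm proteins hold neighbouring cells together, and the transcripts of 10 of their genes were followed in 2 clonal mouse cell lines. The members were 6 cadherin genes (Cdh1, Cdh2, Cdh3, Cdh5, Cdh11 and Cdh13) and the 4 genes of the Cadm family (Cadm1 to Cadm4), found by their symbols among 23358 gene rows. They were chosen by their counts and RPKM values in these same lines, so the difference between the lines is given for them as a description, without a p-value. The line 2xSCS70 came from the gastric tunica muscularis of H-2Kb-tsA58 mice, whose transgene places a heat-labile large T antigen of SV40 under an interferon-inducible promoter. It was kept at 39.5 °C, and no interferon-gamma was added. The line 2xSCS2F10 came from that layer in C57BL/6J mice, and its culture at 37 °C contained 5% chick embryo extract. The labels call both lines progenitors of interstitial cells of Cajal, which pace the contractions of gut muscle, and both were kept in NeuroCult medium. Each line was a single clone with 2 libraries. Strain, transgene, temperature and extract changed together with the line, so that their parts cannot be told apart. The labels did not say whether the libraries came from separate cultures, so their spread, and the p-values that rest on it, may be technical.

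Classical cadherins bind the same cadherin on the next cell through their extracellular repeats in the presence of calcium, and their cytoplasmic tails hold beta-catenin, p120-catenin and, through alpha-catenin, the actin cytoskeleton. Epithelia carry mainly E-cadherin, whereas mesenchymal cells carry N-cadherin and cadherin 11, and a change of cadherin type accompanies transitions between these states. Cadm proteins, also called nectin-like molecules, are calcium-independent adhesion molecules of the immunoglobulin superfamily whose short tails bind protein 4.1 and PDZ proteins. In bulk RNA, fewer cells with a transcript and less transcript per cell cannot be told apart.

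Gene counts summed to 48971264 and 44737008 in the 2xSCS70 libraries and to 40319972 and 45098902 in the 2xSCS2F10 libraries. Levels are given in CPM, counts scaled to a common library size by the TMM method. Levels of different genes are set side by side only in RPKM, which also divides by the length of the gene. RPKM values lack the TMM factors, so sums in RPKM compare the lines without that scaling. Every deposited count was an even number, and 2 counts were read as 1 fragment, which neither the labels nor the headers state. The numbers of fragments, the floor, the bounds and the exact intervals rest on that reading. The filter and the edgeR test took the counts as deposited, so under that reading each fragment entered them as 2 counts. How the tested genes, calls and p-values would change with halved counts was not tested. A floor of 3 fragments lay between 0.109 and 0.157 CPM. The 2xSCS2F10 libraries stood further apart, with 12.4% of 14496 tested genes differing by more than 2-fold between them, against 2.72% in 2xSCS70. Of 9 markers of interstitial cells of Cajal, 1 reached 1 RPKM in the 2xSCS70 libraries and 2 did in the 2xSCS2F10 libraries, and Kit, the receptor that defines mature cells, had 0 and 1 fragments in 2xSCS70 and 0 in both 2xSCS2F10 libraries. Gja1, the connexin 43 gene and the most abundant of these markers, averaged 96.5 ± 3.81 CPM in 2xSCS70 and 140 ± 11 CPM in 2xSCS2F10, and the chloride channel gene Ano1 averaged 2.42 ± 0.186 CPM in 2xSCS70 and 24.1 ± 8.08 CPM in 2xSCS2F10 (all means are ± SD, n = 2 libraries). The filter on low counts left 8 members tested and Cdh13 and Cadm3 untested. Of those 8, 5 were called lower and 2 higher in 2xSCS70 at an edgeR adjusted p under 0.05, beside 40.6% of all tested genes (21.8% lower, 18.8% higher). Calls over all genes numbered 5888, against 764 without 2xSCS70 replicate 1, 796 without its replicate 2, 9673 without 2xSCS2F10 replicate 1 and 9074 without its replicate 2. In such a fit the lone library is assumed to vary like those of the other line, so a call kept or lost there says little about a single gene. The libraries of the lines did not overlap in CPM for any of the 8 tested members, which held for 77.4% of all tested genes. Since these counts come from the contrast on which the members were chosen, nothing is read from them.

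**Figure D1:**
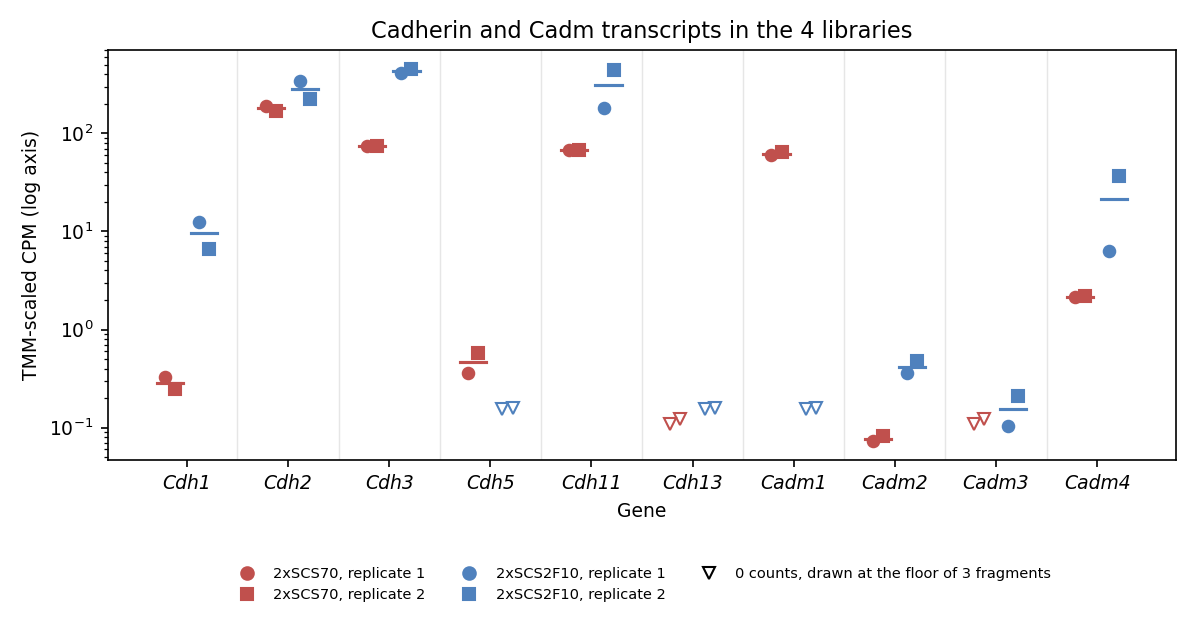
TMM-scaled CPM on a log axis for each of the 10 genes, with 1 point per library (circles for replicate 1, squares for replicate 2) and a bar at the mean of each line. Cdh2 and Cdh3 lie above 70 CPM in all 4 libraries, Cadm1 is seen in the 2xSCS70 libraries alone, and open triangles mark libraries at 0 counts, drawn at the floor of 3 fragments.

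Among the type I classical cadherins, E-cadherin showed the widest gap between the lines. Cdh1, which encodes this epithelial cadherin (chromosome 8, 106603368 to 106670246, mm10), had 9 and 6 fragments in 2xSCS70, against 244 and 126 in 2xSCS2F10. That was 0.327 and 0.247 CPM in 2xSCS70 and 12.5 and 6.61 CPM in 2xSCS2F10, a level 33.0-fold lower in 2xSCS70 (-5.04 on the log2 scale, SE 0.463). Both 2xSCS70 libraries lay below both 2xSCS2F10 libraries, and even in 2xSCS2F10 the gene reached only 2.19 and 0.967 RPKM. On log2 CPM with a prior count of 2, single pairs of libraries differed by 18.0-fold to 43.2-fold. The prior count shrinks differences at so few fragments, and the CPM values themselves lie further apart.

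P-cadherin differed little between the libraries of a line. Cdh3, which encodes it and is found in placenta and basal epithelial layers (chromosome 8, 106510891 to 106556908), had 75.1 and 73.7 CPM in 2xSCS70, against 413 and 453 CPM in 2xSCS2F10. It was 5.82-fold lower in 2xSCS70 (-2.54 on the log2 scale, SE 0.124), and single pairs of libraries differed by 5.5-fold to 6.14-fold. The libraries of a line differed by a factor of 1.02 in 2xSCS70 and 1.09 in 2xSCS2F10. Cdh3 lies next to Cdh1, with 46460 bases between the 2 genes, yet its RPKM exceeded that of Cdh1 254-fold and 330-fold in 2xSCS70, and 36.4-fold and 75.6-fold in 2xSCS2F10.

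N-cadherin differed least among the tested members. Cdh2, the cadherin of mesenchyme, neural tissue and heart (chromosome 18, 16588877 to 16809049), had 190 and 169 CPM in 2xSCS70, against 340 and 226 CPM in 2xSCS2F10. Its level was 1.57-fold lower in 2xSCS70 (-0.65 on the log2 scale, SE 0.222). In CPM the 2xSCS70 libraries lay below those of 2xSCS2F10, and in RPKM they overlapped (35.9 and 28.8 RPKM in 2xSCS70, against 56.5 and 31.4 RPKM in 2xSCS2F10). The nearest pair differed in CPM by 1.19-fold and the 2xSCS2F10 libraries by 1.5-fold.

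Mesothelial and keratin transcripts stood beside these cadherins. All 9 tested mesothelial markers were called lower in 2xSCS70, and none was at 0 in all libraries. Over all tested genes 21.8% were called lower and 18.8% higher, shares to be read beside the marker counts below as well. The mesothelial sum was 54.0 and 43.6 RPKM in 2xSCS70, against 1444 and 1272 RPKM in 2xSCS2F10. Krt8 and Krt19 are in both the mesothelial and the epithelial list, so these counts are not independent. Wt1 is also in the list of transcription factors below. The uroplakin gene Upk3b averaged 4.61 ± 1.28 CPM in 2xSCS70 and 1214 ± 12.8 CPM in 2xSCS2F10, and its relative Upk1b 59.5 ± 3.48 CPM in 2xSCS70 and 997 ± 41.5 CPM in 2xSCS2F10. Of the epithelial markers 2 were higher and 4 lower of 7 tested, and the defining epithelial gene Epcam had 0 counts in all 4 libraries. The most abundant of them, Krt18 and Krt7, went opposite ways: Krt18 averaged 466 ± 60.6 CPM in 2xSCS70 and 113 ± 55.4 CPM in 2xSCS2F10, and Krt7 averaged 0.715 ± 0.0357 CPM in 2xSCS70 and 310 ± 147 CPM in 2xSCS2F10. Without the TMM factors, the epithelial sum was 328 and 247 RPKM in 2xSCS70 and 381 and 288 RPKM in 2xSCS2F10. The part of these cell type markers in the levels of Cdh1 and Cdh3 was not tested.

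Of the type II classical cadherins, Cdh11 was abundant and Cdh5 close to the floor. Cdh11, the cadherin of osteoblasts and other mesenchymal cells (chromosome 8, 102632995 to 102785111), had 66.9 and 68.2 CPM in 2xSCS70, against 181 and 441 CPM in 2xSCS2F10. The level was 4.61-fold lower in 2xSCS70 (-2.20 on the log2 scale, SE 0.434). The 2xSCS2F10 libraries differed by 2.44-fold, so that the fold was 6.60 without 2xSCS2F10 replicate 1 and 2.69 without its replicate 2. In the same libraries, the 8 smooth muscle markers summed to 387 and 325 RPKM in 2xSCS70 and to 2304 and 3413 RPKM in 2xSCS2F10, and 6 of 7 tested were lower in 2xSCS70. The actin gene Acta2 averaged 654 ± 31.6 CPM in 2xSCS70 and 4460 ± 1700 CPM in 2xSCS2F10, and Tagln, which encodes transgelin, 34.6 ± 0.00102 CPM in 2xSCS70 and 2053 ± 889 CPM in 2xSCS2F10. Like Cdh11 these sums were higher in replicate 2 of 2xSCS2F10, and their part in its level was not tested.

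VE-cadherin, the adhesion molecule of endothelial junctions, was detected in 1 line. Cdh5, its gene (chromosome 8, 104101625 to 104144502), had 10 and 14 fragments in 2xSCS70, or 0.363 and 0.575 CPM, against 0 counts in both 2xSCS2F10 libraries. Measured against the floor of 3 fragments per library, it was at least 3.01-fold higher in 2xSCS70. Its level in 2xSCS70 was 0.0797 and 0.114 RPKM. Of 14 endothelial markers, 2 reached 1 RPKM in 2xSCS70 and 0 in 2xSCS2F10, with sums of 5.28 and 4.82 RPKM in 2xSCS70 and 2.14 and 2.28 RPKM in 2xSCS2F10. Of 7 tested, 2 were higher and 2 lower in 2xSCS70. The VEGF receptor gene Flt1, the most abundant of them, averaged 16.1 ± 0.549 CPM in 2xSCS70 and 0.129 ± 0.108 CPM in 2xSCS2F10, and Egfl7, a secreted endothelial factor, 2.32 ± 0.150 CPM in 2xSCS70 and 0.467 ± 0.0663 CPM in 2xSCS2F10. Pecam1, which defines endothelium, stood at 0.181 and 0.206 CPM in 2xSCS70 and 0.0514 and 0.0525 CPM in 2xSCS2F10, and Sox17 had 0 counts throughout. The part of these markers in the Cdh5 counts was not tested.

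The atypical cadherin had no reads. Cdh13 encodes T-cadherin, which is held at the membrane by a lipid anchor and lacks a cytoplasmic tail (chromosome 8, 118283755 to 119323448), and it had 0 counts in all 4 libraries. At this depth it was not detectable above 0.109 to 0.157 CPM.

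The most abundant Cadm gene was Cadm1 in 2xSCS70 and Cadm4 in 2xSCS2F10. The family summed to 12.8 and 12.3 RPKM in 2xSCS70 and to 2.29 and 10.9 RPKM in 2xSCS2F10. In TMM-scaled CPM per kilobase the sums were 14.6 and 15.6 in 2xSCS70, against 2.97 and 16.95 in 2xSCS2F10. On that scale the lines overlapped. In 2xSCS70 nearly all of the sum came from Cadm1 (93.2% and 93.5%) and the rest from Cadm4 (6.79% and 6.47%). In 2xSCS2F10 nearly all came from Cadm4 (97.9% and 99.4%), with Cadm1 at 0. Cadm1 encodes an adhesion molecule of epithelia, mast cells and nerve endings that was first described as a tumour suppressor (chromosome 9, 47530352 to 47853385). It had 1648 and 1558 fragments in 2xSCS70 (59.8 and 64.0 CPM), against 0 in both 2xSCS2F10 libraries, which makes it at least 397-fold higher in 2xSCS70. The only row overlapping it, Gm10677, had 0.145 and 0.206 CPM in 2xSCS70 and 0 counts in 2xSCS2F10. Mast cells are known to carry Cadm1. Of 4 tested mast cell markers 2 were lower and 0 higher in 2xSCS70, and their sum was 6.91 and 5.28 RPKM in 2xSCS70 and 10.8 and 10.4 RPKM in 2xSCS2F10, with Cpa3, Tpsab1 and Fcer1a at 0 counts in all 4 libraries. The transcription factor gene Gata2 had 22.9 ± 2.75 CPM in 2xSCS70 and 18.9 ± 2.47 CPM in 2xSCS2F10. The part of mast cell transcripts in Cadm1 was not tested.

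Cadm4, known from Schwann cells and epithelia (chromosome 7, 24482023 to 24504533), had 59 and 53 fragments in 2xSCS70, against 122 and 692 in 2xSCS2F10. Its level was 2.14 and 2.18 CPM in 2xSCS70, against 6.27 and 36.3 CPM in 2xSCS2F10, or 9.85-fold lower in 2xSCS70 (-3.30 on the log2 scale, SE 0.857). The 2xSCS70 libraries stood close together and below both others, while the 2xSCS2F10 libraries differed by 5.80-fold. The fold was therefore 17 without 2xSCS2F10 replicate 1 and 2.92 without its replicate 2.

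Cadm2 and Cadm3, which are mainly neuronal, were near the floor. Cadm2 (chromosome 16, 66655421 to 67620908) had 2 and 2 fragments in 2xSCS70, against 7 and 9 in 2xSCS2F10, lower by a ratio of 5.39 with an exact 95% interval of 1.74 to 22.2 that covers counting error only. The row 1700010K23Rik, which overlaps Cadm2, had 0 counts in all 4 libraries. Cadm3 (chromosome 1, 173334254 to 173367695) had 0 counts in both 2xSCS70 libraries, against 2 and 4 fragments in 2xSCS2F10, and no fold is given. Markers of glia summed to 0.961 and 0.708 RPKM in 2xSCS70 and to 1.14 and 0.583 RPKM in 2xSCS2F10, with 1 higher and 1 lower of 5 tested. Among them the receptor gene Erbb3 averaged 0.354 ± 0.269 CPM in 2xSCS70 and 2.66 ± 1.61 CPM in 2xSCS2F10. The sums of neuronal markers were 22.6 and 17.3 RPKM in 2xSCS70 and 190 and 146 RPKM in 2xSCS2F10, most of it Uchl1, a ubiquitin hydrolase (14.1 ± 3.69 CPM in 2xSCS70 and 267 ± 16.7 CPM in 2xSCS2F10). Of 5 tested neuronal markers 2 were higher and 2 lower, and Nos1, the neuronal nitric oxide synthase gene, was among the higher, at 29.6 ± 3.89 CPM in 2xSCS70 and 0.0262 ± 0.0371 CPM in 2xSCS2F10. Elavl4 and Stmn2, which define neurons, had 0 counts in all 4 libraries, and the part of glial and neuronal transcripts in Cadm2 and Cadm3 was not tested.

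Promoter sequence was at hand for 3 of the 10 members, and that of Cadm4 and Cadm2 is printed because both genes were lower in 2xSCS70 while their levels lay far apart. Each run covers 250 bases before and 30 after the RefSeq start site on GRCm38.p6, in the direction of the gene (chr7:24481773-24482052, plus strand, for Cadm4 and chr16:67620879-67621158, minus strand, for Cadm2). Capitals mark the E-box letters CAGGTG or CACCTG, a motif that Snail and Zeb repressors are known to bind, searched on both strands.
Cadm4: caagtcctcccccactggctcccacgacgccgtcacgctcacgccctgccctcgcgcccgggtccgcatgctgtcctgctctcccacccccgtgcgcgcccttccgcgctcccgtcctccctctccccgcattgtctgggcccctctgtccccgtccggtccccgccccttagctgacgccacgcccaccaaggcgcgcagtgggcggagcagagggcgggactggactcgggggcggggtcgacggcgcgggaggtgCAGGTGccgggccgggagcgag
Cadm2: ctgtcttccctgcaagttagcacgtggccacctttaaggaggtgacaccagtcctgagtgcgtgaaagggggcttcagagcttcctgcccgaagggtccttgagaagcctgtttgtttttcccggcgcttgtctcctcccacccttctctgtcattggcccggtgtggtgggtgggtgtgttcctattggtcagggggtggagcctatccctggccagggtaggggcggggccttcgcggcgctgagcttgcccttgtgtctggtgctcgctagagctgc
The Cadm4 window held 34 CG dinucleotides and 1 E-box, which began at base 9 of the transcript. The Cadm2 window held 11 CG dinucleotides and the Cadm3 window 14, both with 0 E-boxes. Over 32851 promoters of the same length the median was 6 CG dinucleotides, and 19.1% held either E-box. A match is a string of letters and does not show binding.

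**Figure D2:**
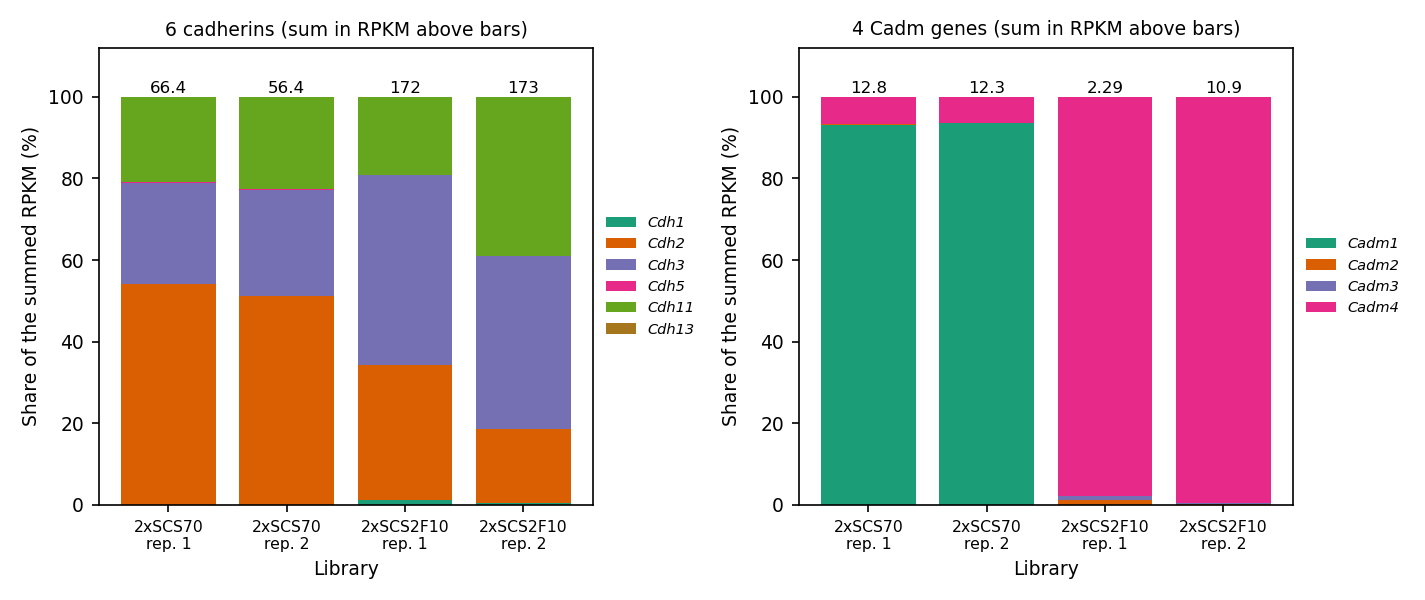
Share of each gene in the summed RPKM of the 6 cadherins (left) and of the 4 Cadm genes (right) for each library, with the sum in RPKM above the bar. Cdh2 takes the largest cadherin share in both 2xSCS70 libraries and Cdh3 in both 2xSCS2F10 libraries, and the Cadm bars change from Cadm1 in 2xSCS70 to Cadm4 in 2xSCS2F10.

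The makeup of the cadherin pool differed as well as its size. The 6 cadherins summed to 61.4 ± 7.09 RPKM in 2xSCS70 and 172 ± 1.06 RPKM in 2xSCS2F10, a sum 2.81-fold lower in 2xSCS70. In TMM-scaled CPM per kilobase the sum was 73.5 ± 3.17 in 2xSCS70 and 245 ± 32.3 in 2xSCS2F10 (3.34-fold lower in 2xSCS70). On that scale the 2xSCS2F10 libraries stood further apart than those of 2xSCS70. N-cadherin made up 54.0% and 51.2% of it in 2xSCS70, against 32.9% and 18.1% in 2xSCS2F10. P-cadherin made up 24.8% and 25.9% in 2xSCS70, against 46.5% and 42.3% in 2xSCS2F10. The Cdh11 share was 20.9% and 22.7% in 2xSCS70 and 19.3% and 39.0% in 2xSCS2F10, so for Cdh11 alone among these 3 the shares overlapped. Cdh1 never exceeded 1.28% of the pool, and Cdh5 stayed at 0.120% and 0.203% in 2xSCS70.

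The order of levels was the same in both 2xSCS70 libraries but not in those of 2xSCS2F10. In 2xSCS70, Cdh2 (35.9 and 28.8 RPKM) was followed by Cdh3 (16.5 and 14.6 RPKM), Cdh11 (13.9 and 12.8 RPKM) and Cadm1 (11.9 and 11.5 RPKM), and no neighbours in that order overlapped. In 2xSCS2F10, Cdh3 came first (79.9 and 73.1 RPKM). Cdh11 (33.1 and 67.6 RPKM) and Cdh2 (56.5 and 31.4 RPKM) overlapped and changed places, with Cdh2 at 1.71 times the RPKM of Cdh11 in replicate 1 and at 0.465 times in replicate 2. Cadm4 (2.24 and 10.9 RPKM) and Cdh1 (2.19 and 0.967 RPKM) came after them.

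**Figure D3:**
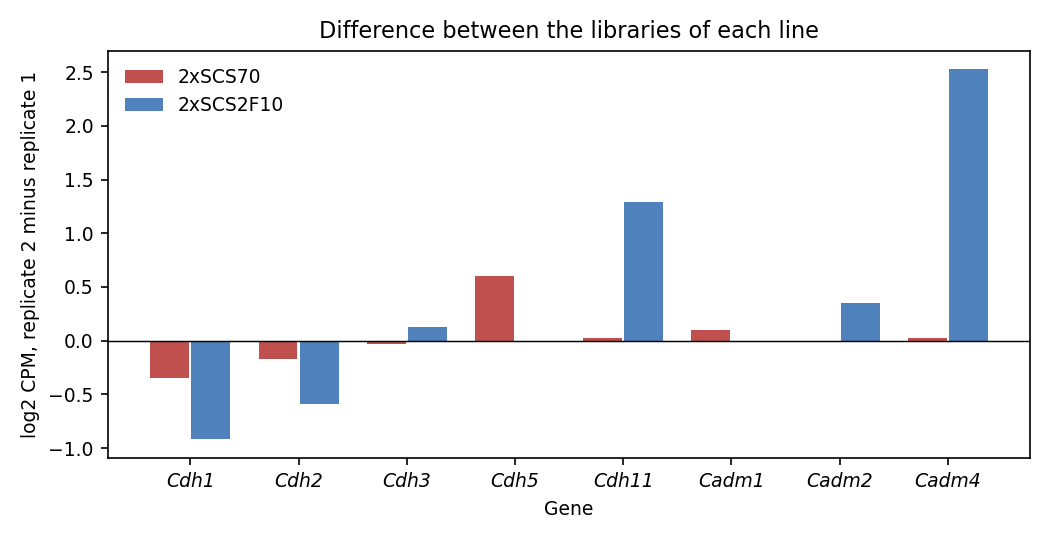
Difference in log2 CPM (replicate 2 minus replicate 1) for members with at least 3 fragments in both libraries of a line. In 2xSCS2F10, Cdh1 and Cdh2 stand lower and Cdh11 and Cadm4 higher in replicate 2, while Cdh3 differs by 0.13, and the 2xSCS70 bars of Cdh3, Cdh11 and Cadm4 are close to 0.

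The 2 libraries of 2xSCS2F10 differed in which adhesion genes they favoured. On the log2 CPM scale, Cadm4 was 2.53 and Cdh11 1.29 higher in replicate 2, and Cdh1 was 0.92 and Cdh2 0.59 lower. Of all tested genes, 99.2% differed by less than Cadm4 did between these libraries and 92.7% by less than Cdh11. The share was 86.2% for Cdh1, 74.7% for Cdh2 and 25.7% for Cdh3. In 2xSCS70 the same differences were 0.03 for Cadm4, 0.03 for Cdh11, -0.35 for Cdh1 (on 6 to 9 fragments) and -0.17 for Cdh2. Other transcripts moved between the 2xSCS2F10 libraries too. Krt19 stood at 166 CPM in replicate 1 and 50.6 CPM in replicate 2, and Col3a1, a fibrillar collagen, at 3601 and 9200 CPM. With 1 library on each side there was no test of these differences.

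Genes with the most similar pattern were sought among those that were tested and averaged 10 CPM or more, by the Euclidean distance of log2 CPM deviations over the 4 libraries. With so few libraries this measure rests mostly on the line and on the spread of 2xSCS2F10. For Cdh1 the nearest of 9194 genes were Fam132b (distance 0.0616), Fhl1 (0.209) and Arhgef26 (0.376). Fhl1, a LIM domain protein, had 6.39 and 5.80 CPM in 2xSCS70 and 258 and 138 CPM in 2xSCS2F10. For Cdh11 they were Prnp, the prion protein gene (0.130), Mylk, the myosin light chain kinase (0.191), and Wnt9a, a Wnt ligand (0.215). For Cdh2 they were Aven (0.0732), Rps20 (0.0748) and Mapre2 (0.0795). For Cadm1 they were Peli2 (1.57), Adamtsl3 (1.66) and Nos1 (1.82), at larger distances. The log2 CPM of Cadm1 in 2xSCS2F10, where it had 0 counts, is set by the prior count, so these distances depend on abundance too.

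Within 500000 bases of Cdh1, 6 of 20 tested neighbours other than the members were lower and 0 higher in 2xSCS70, beside 21.8% lower and 18.8% higher over all tested genes. The window of Cdh3 gave the same counts, since it overlaps that of Cdh1. Around Cadm4, 6 of 23 tested genes were higher and 3 lower, around Cdh5 2 of 12 were higher and 3 lower, around Cdh13 1 of 9 was higher and 5 lower, and around Cadm3 3 of 5 were higher and 0 lower. The window of Cdh2 held 1 tested gene, which was not called, those of Cadm1 and Cadm2 held 0, and that of Cdh11 no other row. The largest change among the 6 near Cdh1, singled out after its values were seen, was Smpd3, a sphingomyelinase, at 30.6 and 25.9 CPM in 2xSCS70 and 574 and 806 CPM in 2xSCS2F10 (24.5-fold lower, edgeR adjusted p = 0.000635). Tmco7, 12822 bases from Cdh1, had 30.48 and 29.96 CPM in 2xSCS70 and 34.6 and 30.8 CPM in 2xSCS2F10 (edgeR adjusted p = 0.515).

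The comparison of the lines was then read for 8 lists of genes that work with cadherins or Cadm proteins and hold none of the 10 members. The lists were chosen with earlier results of these data known. Over all tested genes the median of the log2 fold changes was 0.02, 18.8% were higher and 21.8% lower. All p-values below are from the edgeR quasi-likelihood test over 14496 genes.

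**Figure D4:**
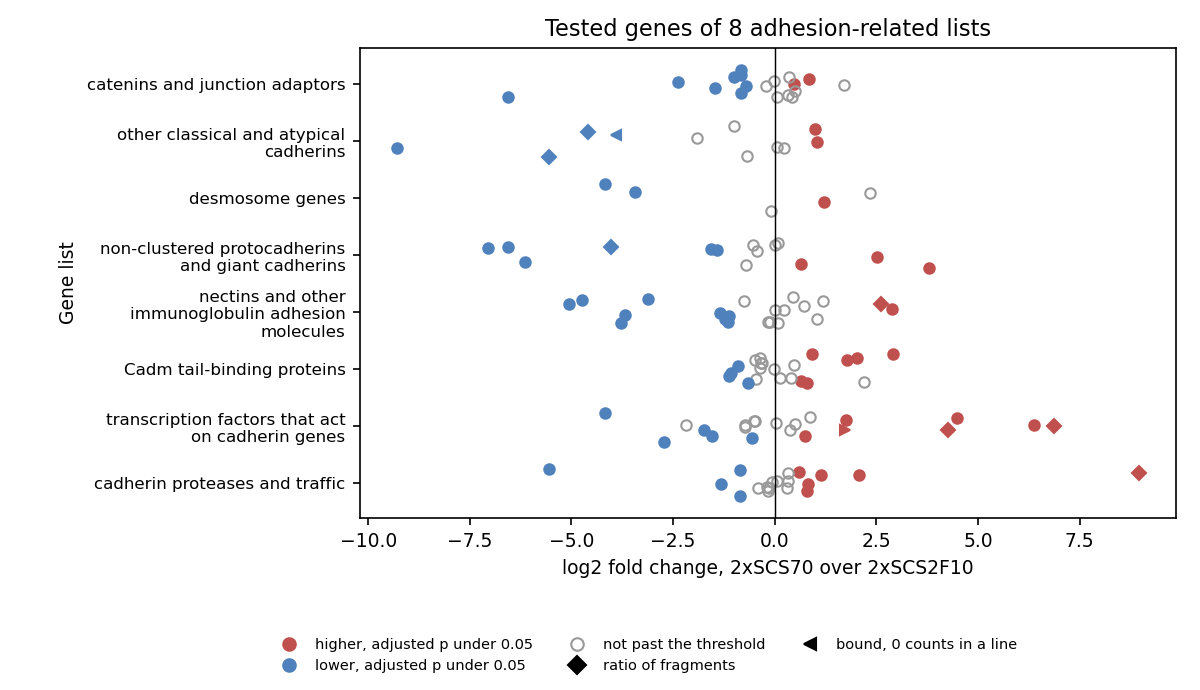
log2 fold change (2xSCS70 over 2xSCS2F10) of the tested genes of 8 lists, with 1 symbol per gene, red for higher and blue for lower at an adjusted p under 0.05 and open grey for the rest. Diamonds are ratios of fragments for genes whose libraries in a line were all under 3 fragments, and arrowheads are bounds for genes at 0 counts in a line. Among catenins and adaptors 8 genes are lower and 2 higher, and the list of transcription factors, which also holds 2 splicing regulators, reaches far to both sides.

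Of the catenins and the adaptors and regulators of cadherin junctions, 8 of 18 tested were lower and 2 higher in 2xSCS70, with a median of -0.11. Plekha7, which links p120-catenin to microtubules, was 94.9-fold lower, at 0.322 ± 0.301 CPM in 2xSCS70 and 30.02 ± 5.04 CPM in 2xSCS2F10 (SE 0.623, edgeR adjusted p = 0.00244). Its fold was 55.9 without 2xSCS70 replicate 1 and 268 without its replicate 2. Arvcf, a relative of p120-catenin, was 5.20-fold lower (16.8 ± 1.0 CPM in 2xSCS70 and 87.3 ± 5.76 CPM in 2xSCS2F10, edgeR adjusted p = 0.000719). Afdn, the afadin gene that couples nectins to actin, was 2.75-fold lower (159 ± 0.476 CPM in 2xSCS70 and 437 ± 35.9 CPM in 2xSCS2F10, edgeR adjusted p = 0.00189). Cbll1, whose product Hakai ubiquitinates E-cadherin, was 1.80-fold higher (25.7 ± 2.12 CPM in 2xSCS70 and 14.2 ± 0.0691 CPM in 2xSCS2F10, edgeR adjusted p = 0.0104). Ctnna1 and Ctnnb1, picked from the catenins after their values were seen, were less far apart. Alpha-catenin Ctnna1 was 1.62-fold lower (edgeR adjusted p = 0.0107). Beta-catenin Ctnnb1 had 781 ± 15.4 CPM in 2xSCS70 and 580 ± 63.2 CPM in 2xSCS2F10 (edgeR adjusted p = 0.0658). With either 2xSCS70 library left out the list had 2 lower and 0 higher genes, Arvcf and Plekha7, and on log2(RPKM + 1) values 3 higher and 3 lower, with a median of 0.05 beside 0.15 for all tested genes.

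Among other cadherins, 4 of 11 tested were lower and 2 higher, with a median of -0.99. Cdh10, a type II cadherin of brain, was 626-fold lower in 2xSCS70, at 0.0798 ± 0.0615 CPM, against 50.2 ± 17.7 CPM in 2xSCS2F10 (SE 0.531, edgeR adjusted p = 0.000735). With 1 and 3 fragments in 2xSCS70, its fold was 397 without 2xSCS70 replicate 1 and 1280 without its replicate 2. Cdh6, the kidney cadherin, had 0 counts in 2xSCS70 and 1.74 ± 0.210 CPM in 2xSCS2F10, at least 15.0-fold lower (edgeR adjusted p = 0.00372). Clstn2, a calsyntenin of synapses, was lower by a ratio of 24.2 (exact 95% interval 7.87 to 121, edgeR adjusted p = 0.00351), whereas its relative Clstn1 was 2.06-fold higher (93.7 ± 7.04 CPM in 2xSCS70 and 45.5 ± 6.45 CPM in 2xSCS2F10, edgeR adjusted p = 0.00749). With either 2xSCS70 library left out the called genes of this list were 2, Cdh6 and Cdh10, and without 2xSCS2F10 replicate 1 they were 10.

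Desmosomal cadherins were near or at 0. Of 14 desmosome genes 5 were tested, and none of the desmocollins and desmogleins was among them. Perp, a tetraspan protein of desmosomes, was 18.1-fold lower (1.16 ± 0.00722 CPM in 2xSCS70 and 20.9 ± 0.894 CPM in 2xSCS2F10, edgeR adjusted p = 0.00049), and Dsp, desmoplakin, was 10.8-fold lower (edgeR adjusted p = 0.0104), or 21.4-fold without 2xSCS70 replicate 1 and 7.36-fold without its replicate 2. Pkp1, a plakophilin, was 2.33-fold higher (14.4 ± 1.37 CPM in 2xSCS70 and 6.18 ± 2.59 CPM in 2xSCS2F10, edgeR adjusted p = 0.0374). The median was -0.09, and Perp alone was called with either 2xSCS70 library left out, and 5 genes without 2xSCS2F10 replicate 1.

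Of the non-clustered protocadherins and giant cadherins, 6 of 14 tested were lower and 3 higher, with a median of -0.63. Celsr1, a planar polarity cadherin, was 93.9-fold lower (0.726 ± 0.154 CPM in 2xSCS70 and 68.6 ± 6.30 CPM in 2xSCS2F10, SE 0.223, edgeR adjusted p = 0.000347). Pcdh17 was 133-fold lower (0.116 ± 0.0102 CPM in 2xSCS70 and 15.8 ± 5.71 CPM in 2xSCS2F10, edgeR adjusted p = 0.000885). Pcdh9 was 70.4-fold lower (0.114 ± 0.0445 CPM in 2xSCS70 and 8.29 ± 5.12 CPM in 2xSCS2F10, edgeR adjusted p = 0.00368), and both are protocadherins of the nervous system. In 2xSCS70 both lay near the floor of 3 fragments (0.109 and 0.123 CPM), so these folds rest on few fragments. The fold of Pcdh9 was 40.0 without 2xSCS2F10 replicate 1 (-5.32 on the log2 scale, against -6.66 without its replicate 2), and its edgeR adjusted p was 0.0611 and 0.0639 with 2xSCS70 replicate 1 or 2 left out. Fat4, the receptor of Dachsous in planar polarity, was 5.70-fold higher (306 ± 17.7 CPM in 2xSCS70 and 53.8 ± 4.67 CPM in 2xSCS2F10, SE 0.133, edgeR adjusted p = 0.000657). With either 2xSCS70 library left out 2 were called lower and 1 higher.

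Nectins and other immunoglobulin adhesion molecules counted 9 lower and 2 higher of 21 tested, with a median of -0.17 (0.02 on log2(RPKM + 1) values, beside 0.15 for all tested genes). Icam1, the ligand of leukocyte integrins, was 13.8-fold lower (14.6 ± 1.69 CPM in 2xSCS70 and 201 ± 60.8 CPM in 2xSCS2F10, edgeR adjusted p = 0.00117). Alcam was 8.73-fold lower (27.4 ± 3.58 CPM in 2xSCS70 and 239 ± 71.3 CPM in 2xSCS2F10, edgeR adjusted p = 0.00171) and Chl1, a relative of the neural adhesion molecule L1, 33.6-fold lower (edgeR adjusted p = 0.0014). The Chl1 fold was 25.9 without 2xSCS70 replicate 1 and 46.5 without its replicate 2. On log2(RPKM + 1) values the log2 fold change of Chl1 was -0.80, against -5.07 in the main fit. Jam3, a junctional adhesion molecule, was 7.37-fold higher (19.7 ± 1.87 CPM in 2xSCS70 and 2.67 ± 0.290 CPM in 2xSCS2F10, SE 0.197, edgeR adjusted p = 0.00111). Nectin3, a nectin, which pairs with other nectins and nectin-like proteins, was 2.55-fold lower (edgeR adjusted p = 0.00291). Crtam, a receptor that binds Cadm1, had 0 counts in 2xSCS70 and 1 and 0 fragments in 2xSCS2F10. With either 2xSCS70 library left out 3 were called lower and 1 higher, and without 2xSCS2F10 replicate 2 the calls were 11 lower and 6 higher.

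Of the proteins that bind Cadm tails, 6 of 21 tested were higher and 4 lower, with a median of -0.03. Mpp7 was 4.1-fold higher (22.1 ± 0.400 CPM in 2xSCS70 and 5.38 ± 0.339 CPM in 2xSCS2F10, SE 0.159, edgeR adjusted p = 0.00152), Epb41l2 of the protein 4.1 family 1.87-fold higher (338 ± 8.57 CPM in 2xSCS70 and 180 ± 3.84 CPM in 2xSCS2F10, edgeR adjusted p = 0.00473) and Mpp1 1.75-fold higher (edgeR adjusted p = 0.00823). Mpp2 was 2.11-fold lower (29.6 ± 1.83 CPM in 2xSCS70 and 62.6 ± 2.13 CPM in 2xSCS2F10, edgeR adjusted p = 0.00403). Mpp proteins are membrane-associated scaffolds with PDZ domains. With either 2xSCS70 library left out Mpp7 was the 1 gene called, and without 2xSCS2F10 replicate 1 the calls were 8 higher and 9 lower.

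The list of transcription factors that act on cadherin genes also holds 2 splicing regulators, Esrp1 and Esrp2. Of its 21 tested genes 7 were higher and 5, Esrp2 among them, lower, with a median of 0.04. Twist2, a mesenchymal factor, was 82.9-fold higher (13.1 ± 2.80 CPM in 2xSCS70 and 0.155 ± 0.145 CPM in 2xSCS2F10, SE 0.572, edgeR adjusted p = 0.00216), with a fold of 236 without 2xSCS2F10 replicate 1 and 50.4 without its replicate 2. Tfap2a, an activator in epithelial and neural crest cells, was 22.4-fold higher (3.56 ± 0.667 CPM in 2xSCS70 and 0.156 ± 0.0758 CPM in 2xSCS2F10, edgeR adjusted p = 0.00287). Its 2xSCS2F10 mean lay at the floor of 3 fragments (0.154 and 0.157 CPM). The Tfap2a fold was 16.6 without 2xSCS2F10 replicate 1 and 33.5 without its replicate 2. Wt1, a mesothelial factor, was 17.9-fold lower (12.2 ± 0.510 CPM in 2xSCS70 and 218 ± 8.63 CPM in 2xSCS2F10, SE 0.129, edgeR adjusted p = 0.000347), and Esrp2, an epithelial splicing regulator whose gene lies 466394 bases from Cdh1, 6.60-fold lower (5.16 ± 0.200 CPM in 2xSCS70 and 34.1 ± 6.83 CPM in 2xSCS2F10, edgeR adjusted p = 0.00131). Of the E-box repressors, Snai1 was 3.39-fold higher, at 41.7 and 32.0 CPM in 2xSCS70 and 8.48 and 13.2 CPM in 2xSCS2F10 (edgeR adjusted p = 0.00855). Zeb1 had 68.3 ± 2.53 CPM in 2xSCS70 and 66.6 ± 20.0 CPM in 2xSCS2F10 (edgeR adjusted p = 0.907), and Snai2 had 27.5 ± 0.245 CPM in 2xSCS70 and 21.2 ± 6.69 CPM in 2xSCS2F10 (edgeR adjusted p = 0.258). Without 2xSCS70 replicate 1, 2 were called higher and 2 lower, and without its replicate 2, 1 and 2.

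Among proteases and trafficking genes, 6 of 19 tested were higher and 4 lower, with a median of 0.07. Mmp9, a gelatinase, was higher by a ratio of 498 (38.8 ± 0.592 CPM in 2xSCS70, 3 fragments in all in 2xSCS2F10, edgeR adjusted p = 0.000347). Pcsk6, a proprotein convertase, was 46.5-fold lower (3.22 ± 0.0930 CPM in 2xSCS70 and 150 ± 5.25 CPM in 2xSCS2F10, SE 0.139, edgeR adjusted p = 0.000347). Exoc3, an exocyst subunit, was 2.49-fold lower (edgeR adjusted p = 0.00371) and Aph1a, a gamma-secretase subunit, 1.81-fold lower (edgeR adjusted p = 0.00678). Adam10, the sheddase that cuts E- and N-cadherin, had 292 ± 6.78 CPM in 2xSCS70 and 331 ± 9.0 CPM in 2xSCS2F10 (edgeR adjusted p = 0.243). With either 2xSCS70 library left out 1 was called higher, Mmp9, and 1 lower, Pcsk6.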

How the data were processed

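Per the labels' protocols, RNA was isolated with Qiagen miRNeasy and sequenced from TruSeq mRNA libraries. The submitters' processing notes name TopHat2 2.0.6, Bowtie and HTSeq and the build mm10. No annotation is named there. Strand is not kept by this kit, so reads of overlapping genes cannot be assigned by strand, and how they were counted was not tested. The authors deposited raw counts per gene, per the file headers, and RPKM values, which equalled the count divided by a deposited length and by a fixed number of reads for each library. The header calls this length coding, but for most listed genes it is no multiple of a codon. In the tables, names turned into dates were restored (25), and 8 of 9 rows cut to the name Epb4 were named by position from RefSeq on GRCm38.

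The members and the gene lists were chosen with earlier results of these data known. The 8 pathway lists held 179 genes, 177 with a row. Lines were compared with edgeR 4.0.16 (R 4.3.3) on the deposited counts (quasi-likelihood test, TMM scaling, filterByExpr, 14496 genes tested), with Benjamini-Hochberg adjustment at 0.05. SE was taken as the size of the log2 change over the root of F, and log2 CPM used a prior count of 2. The 13 alternatives included DESeq2 1.42.0 and limma 3.58.1, and the filter was applied anew when a library was left out. Named were all members, up to 4 called genes of each list by adjusted p, the 2 most abundant genes of marker lists, the 3 nearest genes for 4 members, and further genes picked after their values were seen: Ctnna1, Ctnnb1, Nectin3, Crtam, Snai1, Snai2, Zeb1, Adam10, Krt19, Col3a1, Pecam1, Smpd3, Tmco7, Kit and the markers at 0 counts. Of these, Ctnna1, Nectin3 and Snai1 were not called with either 2xSCS70 library left out. Markers of leukocytes and fibroblasts stand with the other observations, and 1 gene that the rule names is not reported here. Plots were made in Python 3.11.15 with matplotlib 3.10.9. RefSeq promoters were matched by symbol.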

Additional observations from a re-analysis of the deposited data

How the results depend on the processing

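All members with a fold kept their direction in every alternative run. On log2(RPKM + 1) and log2(RPKM + 0.1) values the log2 fold change was -1.25 and -3.34 for Cdh1 and -2.23 and -2.29 for Cdh3, and the bound of Cadm1 was 8.72 under upper quartile scaling. The pseudocount shrinks low genes by construction. Without 1 library the log2 fold changes lay between -5.43 and -4.52 for Cdh1, -0.93 and -0.34 for Cdh2, -2.62 and -2.48 for Cdh3, -2.72 and -1.43 for Cdh11, and -4.08 and -1.54 for Cadm4. The log2 bounds lay between 1.22 and 1.88 for Cdh5 and 8.59 and 8.68 for Cadm1, and the log2 ratio of Cadm2 between -2.63 and -2.23.

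Calls over all genes numbered 5888 (2727 higher, 3161 lower) and lay between 764 and 9673 without 1 library, the low counts arising with either 2xSCS70 library left out. In the same fits the calls lay between 2 and 15 for catenins, 2 and 10 for other cadherins, 1 and 5 for desmosome genes, 3 and 10 for protocadherins and giant cadherins, 4 and 17 for nectins, 1 and 17 for Cadm tail-binding proteins, 3 and 18 for transcription factors, and 2 and 14 for proteases. With a filter at a mean of 5 CPM, which tests fewer genes and drops Cdh1, other cadherins had 3 calls, protocadherins and giant cadherins 5 and transcription factors 7. Catenins had 6 on log2(RPKM + 1) and 6 on log2(RPKM + 0.1) values. On log2(RPKM + 1) values 3218 genes were higher and 1828 lower, with the median of all tested genes at 0.15, and at 0.25 with a pseudocount of 0.1. RPKM values lack the TMM factors. The cause of the other shifts was not tested. With the replicate number as a replicate block 5222 genes were called, and the calls were 9 for catenins, 8 for protocadherins and giant cadherins and 12 for nectins. The file headers give each replicate number a lane of its own, so replicate number and lane cannot be told apart. Beyond that nothing in the labels pairs the numbers. Replicate differences of the lines correlated at 0.05 over tested genes. Bounds, ratios and shares were recomputed only where scaling or libraries change them, and shares within a library are the same in TMM-scaled CPM per kilobase. Depth limits Cdh5, Cdh13, Cadm2 and Cadm3, which had 14 fragments or fewer in each library.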

Other observations

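Markers of other cell types were also read in the 4 libraries. Leukocyte genes were low in both lines, with sums of 2.95 and 3.55 RPKM in 2xSCS70 and 1.61 and 1.73 RPKM in 2xSCS2F10. The lysosomal Cd68 averaged 3.40 ± 0.708 CPM in 2xSCS70 and 1.64 ± 0.135 CPM in 2xSCS2F10 (edgeR adjusted p = 0.0407), and the CSF1 receptor Csf1r 1.13 ± 0.208 CPM in 2xSCS70 and 2.66 ± 1.07 CPM in 2xSCS2F10 (edgeR adjusted p = 0.0626). Fibroblast markers summed to 1724 and 1285 RPKM in 2xSCS70 and to 4036 and 5434 RPKM in 2xSCS2F10, with 2 of 8 tested higher and 5 lower in 2xSCS70. The collagen gene Col1a2 averaged 1091 ± 57.3 CPM in 2xSCS70 and 14780 ± 5640 CPM in 2xSCS2F10 (edgeR adjusted p = 0.00274), and Col1a1 5990 ± 1020 CPM in 2xSCS70 and 12120 ± 1720 CPM in 2xSCS2F10 (edgeR adjusted p = 0.0361). Cd68, Col1a2 and Col1a1 were not called with either 2xSCS70 library left out. Of 2 tested leukocyte genes 1 was higher, and Adgre1 had 0 counts in all 4 libraries.

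The mast cell receptor subunit Ms4a2 had 2 and 2 fragments in 2xSCS70, against 141 and 200 in 2xSCS2F10, while Cpa3, Tpsab1 and Fcer1a were at 0 counts in all 4 libraries. It was lower in 2xSCS70 by a ratio of 115 (exact 95% interval 44.4 to 424, edgeR adjusted p = 0.000767).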
